A study of Mus musculus with 2 samples.

Results

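Proteasome genes were taken as all genes whose symbol starts with Psm, a letter from a to g and a digit, and that have at least 1 transcript of the type protein_coding. The rule found 50 genes of the 55536 listed in the heart. It matched 54 symbols, and 4 of these (Psmb5-ps, Psmb6-ps, Psmb6-ps2 and Psmb7-ps2) are copies without a protein-coding transcript, which held at most 2 counts in a heart. Of the 50 genes, 49 encode proteasome subunits, activators, an inhibitor or assembly chaperones. The other, Psmc3ip, encodes a partner protein of meiotic recombination and shares only the start of its symbol. The rule itself uses names and transcript types, not measured values.

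All samples were hearts of male B6CASTF1/J mice, the first-generation cross of the B6 and CAST strains, 36 days old, with no treatment named. The study holds 1 group of 2 biological replicates, called heart 1 and heart 2 here. They are separate tissue samples with the same donor entry, and no label says whether they came from separate animals. Total RNA (300 ng per library) was reduced in ribosomal RNA and sequenced with strand kept and ERCC spike-ins (synthetic RNAs) added. Alleles of both strains were counted together. Levels are in TPM, an abundance unit that corrects for transcript length and library size, and errors are the SD over the hearts (n = 2 throughout). The authors deposited 2 quantifications, and levels and orders are those of the first unless the second is named. With 2 hearts an exact sign permutation cannot go below p = 0.5, so no p-value is given.

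The proteasome degrades proteins that carry ubiquitin chains. Its 20S core is a stack of rings of α and β subunits, in which Psmb5, Psmb6 and Psmb7 encode the β subunits that cut. The 19S particle on its ends binds ubiquitin, unfolds the substrate with a ring of ATPases and feeds it into the core. Immune cells, and other cells under interferon γ, build Psmb8, Psmb9 and Psmb10 into new cores in place of Psmb5, Psmb6 and Psmb7. These immunoproteasomes, often capped by the PA28 activator of Psme1 and Psme2, make peptides for MHC class I molecules. In heart muscle the proteasome is known for the turnover of sarcomere proteins.

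The libraries held 41846508 and 42481559 expected counts, and the proteasome genes held 0.214% and 0.224% of them. The hearts differed in genes of other cells. The 6 erythroid markers, haemoglobin genes among them, summed to 20328 TPM in heart 1 and 9336 TPM in heart 2, and the 6 adipocyte markers to 61.7 and 4.31 TPM. The 7 cardiomyocyte markers, such as Myh6, summed to 27182 and 29800 TPM, so both libraries carried the markers of the labelled tissue. Their part in the results below was not tested.

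Promoter sequence is shown for genes of both kinds of core and for Psme1 of the PA28 activator. The letters searched there are those of factors known to switch such genes, and Psmb8 and Psme1 are shown at their match. Sequences came from the RefSeq promoter table on GRCm38.p6 (mm10), which holds 45 windows for 42 of the 50 genes, each with 250 bases before and 50 bases after a start site. Capitals mark the match to a motif. For Psmb5 (chr14:54618023-54618122, minus strand) and Psmb6 (chr11:70525257-70525356, plus strand) the stretch lies upstream of every exon annotated for the gene and holds TGACNNNGC, the core of the antioxidant response element that NRF factors bind. For Psmb8 (chr17:34198088-34198116, plus strand, in the 5′UTR of the transcript Psmb8-201) it holds TTCNNNGAA, the gamma-activated site, a motif of the interferon γ response. For Psme1 (chr14:55578494-55578522, plus strand, in the UTR of Psme1-208) it holds GAAANNGAA, a core of the interferon-stimulated response element, read on the minus strand.
Psmb5: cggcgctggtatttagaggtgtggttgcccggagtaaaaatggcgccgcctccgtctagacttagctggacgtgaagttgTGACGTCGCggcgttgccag
Psmb6: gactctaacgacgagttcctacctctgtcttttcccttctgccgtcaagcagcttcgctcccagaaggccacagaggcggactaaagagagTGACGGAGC
Psmb8: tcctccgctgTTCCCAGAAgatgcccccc
Psme1: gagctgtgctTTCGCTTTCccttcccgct

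The motifs are short and common. On both strands, TGACNNNGC stood in 12.4% of the 32851 promoter windows of the table and in those of 6 proteasome genes (Psmb5, Psmb6, Psmc6, Psmd9, Psmd12 and Psme4). TTCNNNGAA stood in 8.30% of all windows and in those of 3 proteasome genes (Psmb8, Psmd2 and Psmg1). GAAANNGAA stood in 8.56% of all windows and in those of 7 proteasome genes (Psmb3, Psmb4, Psmc2, Psmd4, Psmd9, Psme1 and Psmg4). The windows of Psmb9, Psmb10 and Psme2 were searched too and held no match to any of these motifs. The patterns searched can overlap each other by a few letters. A match describes the letters only, and no binding was measured in these hearts.

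The hearts expressed the constitutive catalytic genes at high levels. Psmb7, the β2 subunit with trypsin-like activity, stood at 89.9 TPM in heart 1 and 96.9 TPM in heart 2. Psmb6, the β1 subunit with caspase-like activity, stood at 83.5 and 86.0 TPM. Psmb5, the β5 subunit with chymotrypsin-like activity and the target of bortezomib, stood at 73.0 and 70.6 TPM. The order Psmb7, Psmb6, Psmb5 was the same in both hearts, and the values of the 3 genes did not overlap. Their means spanned only 1.30-fold, and each rested on at least 1897 counts in each heart. Psmb7 lies at chr2:38588036-38644087, Psmb6 at chr11:70525367-70527858 and Psmb5 at chr14:54614119-54618022 on mm10.

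The immunoproteasome genes were all lower than any of these. Psmb10, the β2i subunit that replaces Psmb7, stood at 23.6 and 26.8 TPM on 634 and 632 counts, and lies at chr8:105935735-105938444. Psmb8, the β5i subunit that replaces Psmb5, stood at 4.42 and 5.59 TPM on 135 and 169 counts. Psmb9, the β1i subunit that replaces Psmb6, stood at 1.90 and 3.92 TPM on 73 and 104 counts. The 3 genes kept the order Psmb10, Psmb8, Psmb9 in both hearts, and their means spanned 8.66-fold. Psmb10 therefore lay closer to its constitutive partner than the other two did.

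Set against its partner, each gene gave a different ratio. Psmb7 was 3.81 and 3.61 times as high as Psmb10 in hearts 1 and 2. Psmb5 was 16.5 and 12.6 times as high as Psmb8. Psmb6 was 44.0 and 21.9 times as high as Psmb9, so this ratio was the least stable of the 3 between the hearts. As a share of the TPM of the pair, Psmb10 held 21.2% ± 0.638, Psmb8 held 6.52% ± 1.15 and Psmb9 held 3.29% ± 1.51. In each heart the Psmb8 share was above the Psmb9 share (5.71% against 2.22% in heart 1, 7.33% against 4.36% in heart 2), and the lower Psmb8 share lay above the higher Psmb9 share. All 3 immunoproteasome genes together held 10.8% of the catalytic TPM in heart 1 and 12.5% in heart 2 (11.7% ± 1.21). In bulk tissue, a low level from fewer cells of a type and less RNA per cell cannot be told apart.

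**Figure D1:**
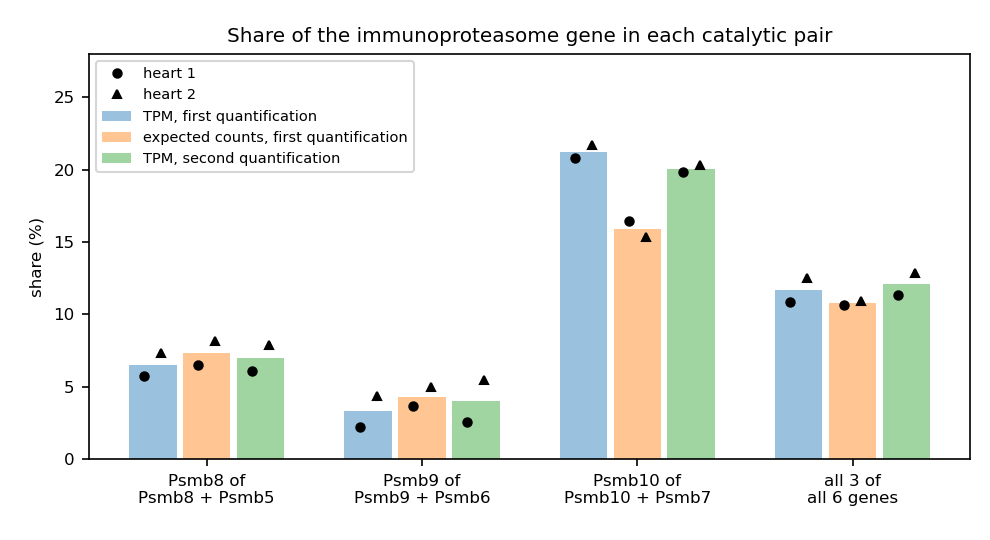
Share of the immunoproteasome gene in each catalytic pair and over all 6 genes, in percent (vertical axis), with bars as the mean of the hearts, circles as heart 1 and triangles as heart 2. Psmb10 holds the highest share in all 3 units, at 21.2% of TPM, and Psmb9 the lowest, at 3.29% of TPM.

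The remaining catalytic gene, Psmb11, encodes the β5t subunit of the thymus, where it serves the selection of CD8 T cells. It lies 3410 bases from Psmb5 on chromosome 14 and held 0 counts in both hearts, which allows up to 3 counts, or 0.0717 and 0.0706 CPM (counts scaled to library size). The second quantification gave it 7.44 and 2.38 estimated counts (0.06 and 0.02 TPM), so that bound holds for the first only. Psma8, which replaces Psma7 in the testis, stood at 0.11 and 0.13 TPM on 4 and 6 counts. The coding sequence of Psma8-204, 1 of its transcripts with 0 and 2.02 counts, matches 76.3% of aligned bases of Psma7. Psmc3ip stood at 0.47 and 0.71 TPM on 17 and 23 counts. These 3 genes were the only ones under 1 TPM in a heart, and 47 of 50 reached it in both.

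Of the other 11 constitutive core genes, 9 had a mean below that of Psmb5, the lowest of the catalytic ones (7 in the second quantification). Among the 7 genes of the α ring, which gates the entry of the core, Psma3 was highest at 72.7 ± 2.19 TPM. Psma2 and Psma5 were lowest, at 19.9 ± 0.544 and 19.8 ± 0.283 TPM, and did not differ beyond their spread. The second quantification set them apart, with Psma2 at 14.8 and 15.4 TPM and Psma5 at 26.0 and 26.5 TPM. The other 4 lay between 49.5 TPM (Psma4) and 61.8 TPM (Psma7), so the ring spanned 3.66-fold although each core holds its subunits in equal numbers. Among the 4 β genes without a cutting site, Psmb4 was highest at 86.5 ± 4.40 TPM. Psmb1 had the lowest mean, 44.7 ± 2.92 TPM, close to Psmb2 at 46.0 TPM. Psmb2 was the lower of the pair in heart 2 and, in the second quantification, in both hearts. Over the 14 constitutive core genes the median was 56.6 TPM and the coefficient of variation 38.6%. The median core gene stood at percentile 95.7 of the 22015 nuclear protein-coding genes listed, and the lowest, Psma5, at percentile 87.2.

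The 17 genes of the 19S particle had a median of 37.6 TPM and a coefficient of variation of 36.7%. Among its 6 ATPases, Psmc3 was highest at 79.9 ± 2.67 TPM and Psmc4 lowest at 33.1 ± 1.04 TPM. Among its 11 other genes, Psmd2, a scaffold subunit like Psmd1, was highest at 76.0 ± 5.39 TPM. Psmd1 itself stood at 37.6 ± 1.35 TPM, below Psmd2 in both hearts (36.6 against 72.2 TPM in heart 1, 38.5 against 79.8 TPM in heart 2). Psmd14, the enzyme that removes ubiquitin from substrates, was lowest at 19.9 ± 0.983 TPM. The ubiquitin receptor Psmd4 stood at 49.1 ± 1.74 TPM.

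The chaperones that build the particle had a median of 5.22 TPM over 7 genes, and the highest of them stood below every constitutive core and 19S gene. In the second quantification Psmg4, at a mean of 17.1 TPM, stood above Psma2 at 15.1 TPM. Psmd5, Psmd9 and Psmd10, which assemble the base of the 19S particle, had means between 4.98 and 5.22 TPM and changed order between the hearts. In the second quantification Psmd10 was the lowest in both hearts, at 5.34 and 5.29 TPM. Of the chaperones of the 20S core, Psmg4 was highest at 11.2 ± 0.205 TPM, next to Psmg2 at 11.2 ± 0.226 TPM. Psmg3 was lowest at 3.54 ± 0.0636 TPM. Pomp, a core assembly factor outside the symbol rule, stood at 48.2 ± 0.636 TPM, near the median of the core genes. The inhibitor Psmf1 (PI31) stood at 7.50 and 7.85 TPM.

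Over all transcript types, the activators ranged from the highest level of the 50 genes to one of the lowest. Psme1, the α subunit of PA28, stood at 101 TPM in heart 1 and 109.97 TPM in heart 2. Its partner Psme2, the β subunit, stood at 34.3 and 37.9 TPM, and both genes lie on chromosome 14, 5911 bases apart. Psme4 encodes PA200, a long single-chain activator of the nucleus that is linked to the degradation of acetylated histones. It stood at 87.2 and 98.5 TPM and held 18132 and 20346 counts, the most of any proteasome gene. Psme3, the nuclear PA28 γ, stood at 32.1 and 31.5 TPM.

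Psme2b, a copy of Psme2 on chromosome 11 with a protein-coding transcript, stood at 1.78 and 1.22 TPM on 44.2 and 30.4 counts. Its coding sequence matches that of Psme2 at 712 of 717 bases, so how reads were split between the copies is uncertain, chiefly for Psme2b, whose counts were 4.57% of those of Psme2. How many reads cover a differing base was not tested. A stretch of 60 coding bases (484 to 543, counted from the start codon, in the transcripts Psme2-208 and Psme2b-201) holds 3 of the 5 differences, in capitals.
Psme2: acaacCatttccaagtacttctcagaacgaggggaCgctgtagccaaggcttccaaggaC
Psme2b: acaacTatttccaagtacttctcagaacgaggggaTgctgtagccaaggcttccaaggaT

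**Figure D2:**
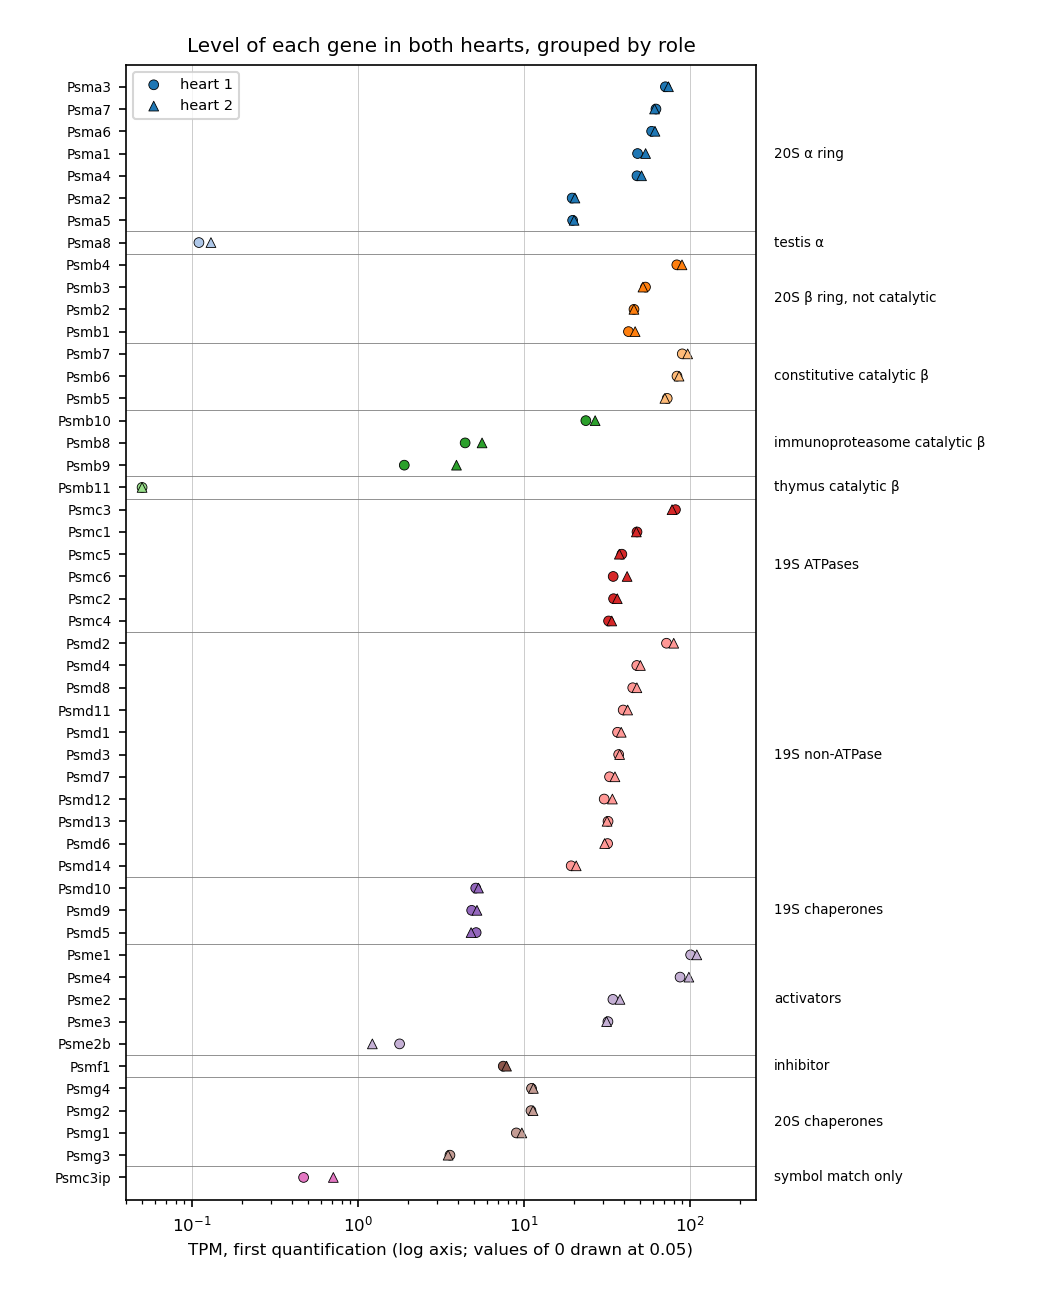
Level in TPM (horizontal log axis) of each of the 50 genes in heart 1 (circles) and heart 2 (triangles), grouped by role and coloured by it, with values of 0 drawn at 0.05. Constitutive core, 19S and activator genes other than Psme2b sit between 19.2 and 110.0 TPM, chaperones and the inhibitor between 3.49 and 11.4 TPM, and the immunoproteasome genes between 1.90 and 26.8 TPM.

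Differences between the hearts were small for most proteasome genes. Ratios are log2 of heart 2 over heart 1 from scaled expected counts, so 0 is no difference, and their 95% intervals cover counting error only. Of the 46 genes with a mean count of 50 or more, 0 differed by 1.5-fold or more, against 4.27% of the 12541 genes of the whole table with that count. In 1 of the 46 (Psmb9) the higher heart stood at least 25% above the lower, as in 14.0% of all genes. Heart 2 was higher for 30 of 46, against 50.1% of all genes. The median absolute log2 ratio was 0.06 for proteasome genes and 0.11 for all genes. Proteasome genes hold more counts than most, so their ratios carry less counting error: the median interval reached 0.10 to either side for them and 0.17 for all genes. The interval held 0 for 39 of 46 (84.8%), against 67.7% of all genes.

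Psmb9 was furthest toward heart 2, with 73 and 104 counts and a log2 ratio of 0.46 (0.02 to 0.92). Psmb8 followed, with 135 and 169 counts and a ratio of 0.28 (-0.06 to 0.62), an interval that holds 0. Psmb10, the third immunoproteasome gene, had a ratio of -0.05 (-0.21 to 0.11), so by counts 2 of the 3 genes were higher in heart 2, and the intervals of all 3 overlap. By TPM all 3 were higher in heart 2, Psmb10 by 1.14-fold, and the effective length given to Psmb10 fell from 798 to 697 bases. That rise was not one of its protein-coding transcript Psmb10-201, which was lower in heart 2 by TPM in both quantifications. It held 449 and 392 counts in the first. Psmb10-203, of the type processed transcript, stood at 4.89 and 9.05 TPM in the first and was lower in heart 2 in the second. By counts Psma1 and Psme4 came next after Psmb8 at 0.12 each, with intervals above 0 (0.03 to 0.22 and 0.09 to 0.15). Psmd11 at 0.10 and Psmf1 at 0.10 followed. Toward heart 1, Psme3 was furthest, with 1958 and 1751 counts and a ratio of -0.21 (-0.30 to -0.11). By TPM Psme3 was nearly level, at 32.1 and 31.5, and its effective length fell from 1815 to 1647 bases. Psmg3 at -0.17, Psmd6 at -0.11, Psmb3 at -0.09 and Psmc5 at -0.09 followed, all with intervals that hold 0. Psme2b, under the count minimum, had a ratio of -0.57 (-1.32 to 0.10).

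By role the medians lay near that of all genes with a mean count of 10 or more, 0.0011. They were 0.01 for the α ring, -0.01 for the other β genes, 0.01 for the constitutive catalytic genes, 0.02 for the ATPases and 0.03 for the other 19S genes. Activators stood at 0.04, chaperones of the 19S particle at 0.01 and those of the core at -0.02. The immunoproteasome genes stood at 0.28, the value of Psmb8, with 2 of 3 higher in heart 2 by counts. With a minimum mean count of 200, which leaves Psmb10 alone of the 3, the value was -0.05.

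The TPM of Psmb9, like that of Psmb10, moved more than its counts did. Its TPM was 2.06 times as high in heart 2, while its scaled counts were 1.38 times as high. The effective length that the first quantification gave the gene fell from 1141 bases in heart 1 to 785 bases in heart 2. Psmb9-204, a protein-coding transcript of 1253 effective bases, held 60.1 of the counts in heart 1 and 33.5 in heart 2. Psmb9-202, a protein-coding transcript of 334 effective bases, held 2.88 and 18.4 counts. Psmb9-207, of the type nonsense-mediated decay, held 0 and 30.4 counts. At 73 and 104 counts in all, the split over 7 transcripts rests on few reads.

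Genes that work beside the immunoproteasome were set against these values. Psmb9 (chr17:34181987-34187764, minus strand) and Tap1 (chr17:34187553-34197225, plus strand), a subunit of the peptide pump into the endoplasmic reticulum, overlap by 212 bases as annotated. They are read in opposite directions, and the RefSeq start sites of their promoter windows have 225 bases between them. Psmb8 (chr17:34197721-34201454, plus strand) starts 495 bases after Tap1, and Tap2, the partner of Tap1, starts 2072 bases after Psmb8. Tap1 held 146 and 239 counts and had a log2 ratio of 0.66 (0.36 to 0.97). Tap2 held 738 and 729 counts and a ratio of -0.06 (-0.21 to 0.09), so its interval lies below that of Tap1 although both encode parts of the same pump. No source used here says whether the counting used strand, and without it reads in the shared bases of Psmb9 and Tap1 cannot be told apart.

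The list of MHC class I loading genes had a median ratio of -0.01, with 5 of 10 higher in heart 2. Calr, a chaperone of the endoplasmic reticulum, was its most abundant gene at 151 and 140.4 TPM. Nlrc5, the transactivator of MHC class I genes, held 50 and 91 counts and had the highest ratio, 0.81 (0.31 to 1.35). H2-K1, a class I heavy chain, had the lowest, -0.13, and B2m, the light chain, stood at 0.02. In the list of interferon regulators 6 of 7 genes were higher in heart 2, with a median of 0.40. Irf7 held 77 and 178 counts (1.15, 0.77 to 1.57) and Irf8 100 and 175 counts (0.76, 0.40 to 1.13). Irf1, a factor known to act on the promoter between the start sites of Psmb9 and Tap1, held 375 and 549 counts (0.50, 0.31 to 0.70). Socs1, a feedback inhibitor on 18 and 16 counts, had the lowest ratio, -0.20.

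The 12 leukocyte markers summed to 154 TPM in heart 1 and 169 TPM in heart 2, and none was at 0 in both. Of the 11 with a mean count of 10 or more, 6 were higher in heart 2 and 5 lower, with a median ratio of 0.0003. The highest, the B cell gene Cd79a, held 18 and 43 counts (1.17, 0.39 to 2.09), and the lowest, the macrophage gene Cd68, held 146 and 123 counts (-0.29, -0.65 to 0.06). Lyz2, the most abundant marker of the list at 65.0 and 74.2 TPM, had a ratio of 0.15 (0.08 to 0.23). The part of immune cells or of interferon in the values of Psmb8 and Psmb9 was not tested.

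**Figure D3:**
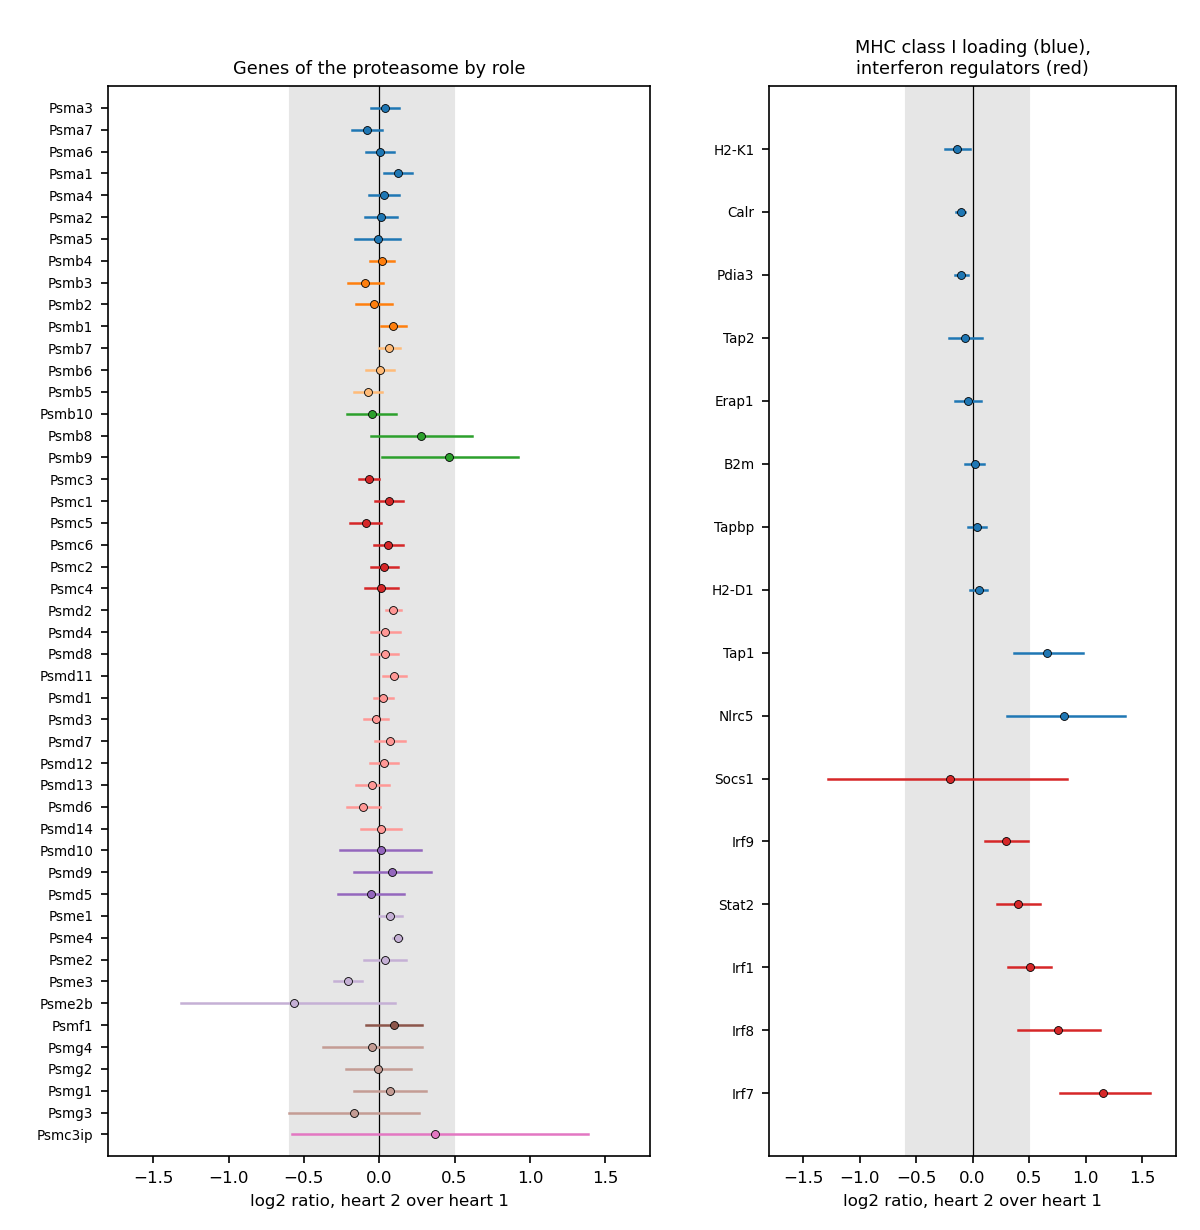
Log2 ratio of heart 2 over heart 1 (horizontal axes) with 95% counting intervals as lines, for proteasome genes with a mean count of 10 or more on the left and for MHC class I loading genes and 6 of the 7 interferon regulators on the right. The grey band holds the central 95% of all genes with a mean count of 50 or more (-0.59 to 0.50), and Psmb9 at 0.46 lies inside it, Irf1 at its edge, and Tap1, Irf8, Nlrc5 and Irf7 beyond it.

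Partners of the proteasome outside the symbol rule also lay near 0. Of 17 symbols on that list 14 were listed, and their ratios ran from -0.14 (Nfe2l2, or NRF2) to 0.16 (Zfand5, a ubiquitin-binding activator of the proteasome), with 7 higher and 7 lower in heart 2. Nfe2l1 (NRF1), the factor known to raise all proteasome genes when the proteasome is inhibited, was the most abundant at 143 and 146 TPM. The deubiquitinase Uchl5 was the least abundant at 5.68 and 6.27 TPM. In the list of 14 genes of ubiquitin supply and delivery the median ratio was -0.02. The shuttle factor Ubqln1 had the lowest ratio, -0.19, and its relative Ubqln2 was the least abundant at 8.85 and 9.33 TPM.

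The transcripts behind these levels were mostly protein-coding. Of the 47 genes at 1 TPM or more in both hearts, 45 had the same main transcript in both hearts, and for 45 it was protein-coding in both. In the second quantification the numbers were 42 and 43. Protein-coding transcripts held 90% or more of the TPM in 32 genes by the first quantification, in 25 by the second and in 23 by both. The median over the 47 genes was 97.5% and 94.5%.

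In several genes other transcript types held much of the TPM, or no transcript held 50% of it. Psma3 had a protein-coding main transcript in heart 1 (Psma3-204, 28.1% of TPM) and one of the type nonsense-mediated decay in heart 2 (Psma3-201, 35.5%). Protein-coding transcripts held 42.0% ± 7.64 of its TPM in the first quantification and 9.84% ± 8.08 in the second. The main transcript of Psmd13, Psmd13-211, was of that type in both hearts, at 37.5% and 37.8%. Psmc6 had the protein-coding main transcript Psmc6-201 (55.9% and 48.1%) in the first quantification, and in the second Psmc6-208 of the type nonsense-mediated decay (44.8% and 43.3%). For Psme1, protein-coding transcripts held 59.7% ± 0.642 of TPM in the first quantification and 52.0% ± 6.79 in the second. In the second, the protein-coding Psme1-208 led in heart 1 at 52.3%. Psme1-209, of the type nonsense-mediated decay, led in heart 2 at 52.4%. For Psmb10 the protein-coding transcript Psmb10-201 held 46.7% and 35.7%, and transcripts with a retained intron held 31.6% ± 1.41. Part of the TPM behind the Psmb10 share thus lay in transcripts not annotated as coding, and the same holds for Psmb8 and Psmb9. Protein-coding transcripts held 60.4% ± 3.45 of Psmb8 TPM and 77.4% ± 15.6 of Psmb9 TPM in the first quantification. In the second they held 94.5% ± 6.04 and 82.6% ± 10.1. For the partners Psmb5, Psmb6 and Psmb7 the first quantification gave 100%, 88.8% and 99.8%. For Psmb8 the first quantification put 57.9% and 62.8% of TPM on Psmb8-203 and listed Psmb8-201 at 0, while the second put 66.4% and 51.8% on Psmb8-201. Psmb9 changed its main transcript, from Psmb9-204 in heart 1 (74.7%) to Psmb9-202 in heart 2 (41.5%), both protein-coding. In Psmc4 protein-coding transcripts held 91.0% of TPM in the first quantification and 55.3% in the second, and in Psma1 98.2% and 67.3%. The transcripts Psmd4-202 (47.9% and 45.7%), Psmd9-204 (49.2% and 46.6%) and Psme2-208 (48.3% and 41.6%) also led with under 50% of TPM, and so did Psmd11-201 in heart 1 at 49.4%.

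**Figure D4:**
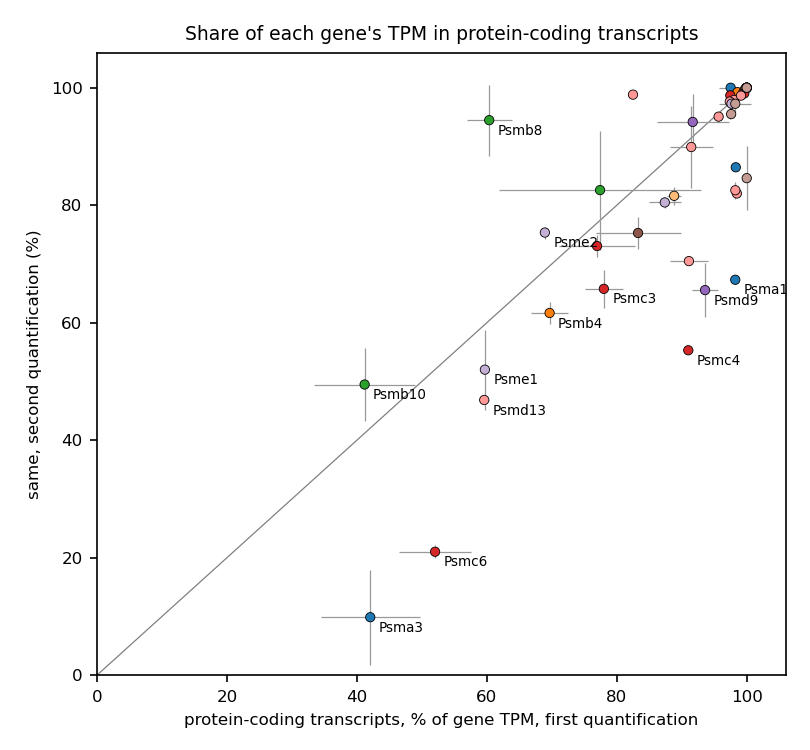
Percent of each gene's TPM in protein-coding transcripts in the first (horizontal axis) and the second quantification (vertical axis), as the mean of the hearts with SD bars, for the 47 genes at 1 TPM or more, coloured by role. In 23 genes both percents are 90 or more, Psmc4, Psma3, Psmc6 and Psma1 fall furthest below the diagonal, and Psmb8 lies furthest above it.

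The quantifications gave most proteasome genes like levels. The second was 1.24-fold higher for the median proteasome gene and 1.16-fold higher for the median of all genes. It was 1.5-fold or more higher for 7 proteasome genes. The share of all genes past that factor is not given here, so the count describes these genes only. Psmc6 differed most, at 34.5 and 41.8 TPM in the first and 69.1 and 77.2 TPM in the second. Psmc3ip was 1.66-fold, Psma1 1.58-fold, Psme1 1.53-fold, Psme3 1.53-fold, Psma8 1.52-fold and Psmg4 1.52-fold higher. No proteasome gene was lower by that factor, Psmb11 aside, which has no ratio. The sign of the ratio between hearts was the same in both quantifications for 39 of 46 proteasome genes, again without the share of all genes beside it.

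Near copies, here any other gene that matches the coding sequence of a proteasome gene, can share reads with it. Their positions were not compared, so a match can also come from a gene annotated over the same bases. At 95% identity over 100 bases or more of the coding sequence, 14 of the 50 genes had 23 near copies, 13 of them pseudogenes. The catalytic gene with the largest share was Psmb5, whose processed pseudogene Gm3375 matches 98.9% of 793 aligned bases and held 174 and 197 counts. Copies held 9.70% of the counts of Psmb5. They held 14.1% for Psma5 (chiefly Gm8394), 9.03% for Psmb3 (AC114990.1) and 6.13% for Psma3, where Gm13835 is identical over 540 bases. In the second quantification copies held 12.3% for Psmb5 and 13.2% for Psma5, but 0.714% for Psmb3 and 0.198% for Psma3. For these genes the split of reads between gene and copy is uncertain. Psmb7 is identical over 155 bases to Nek6, a protein-coding gene whose counts were 4.74% of those of Psmb7 (5.55% in the second quantification). Whether Nek6 and Psmb7 share these bases in the genome was not checked. Psmb6, Psmb9 and Psmb10 had no near copy, and that of Psmb8, the antisense gene Gm20496, held 0 counts. The catalytic partners themselves are far apart in sequence: Psmb8 and Psmb5 match at 67.1% of aligned coding bases, Psmb9 and Psmb6 at 65.6% and Psmb10 and Psmb7 at 62.5%. For Psmb8 both the alignment and the search used Psmb8-203, whose 770 annotated coding bases are not a whole number of codons. The same holds for Psmd5-202, searched with 419 coding bases.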

How the data were processed

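The members and the gene lists were chosen with earlier results of these data known. Expected counts per gene and transcript were deposited by the authors, per the labels on mm10 with GENCODE M21, in a first quantification in the layout of RSEM. TPM and FPKM were deposited by the authors beside them, as was the percent of a gene's TPM per transcript. Estimated counts and TPM of a second quantification, in the layout of kallisto, were deposited by the authors per transcript and were summed per gene. No label or header names the tools or their versions.

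Ratios used expected counts scaled by TMM factors over all genes without spike-ins and numbered tRNA entries (edgeR 4.0.16, expected counts rounded to whole numbers, R 4.3.3) with a prior count of 1. Their 95% intervals are exact Clopper-Pearson intervals. They and the floor of 3 counts describe counting error alone, since PCR copies cannot be recognised without molecular identifiers. A ratio past 1.5-fold at a mean count of 50 is a threshold of size with no test behind it. Simulated counts with set changes and counting error alone were used to check the calculation of the ratios. They do not cover the spread between hearts. Near copies were found with blastn 2.17.0, and coding sequences were aligned with Biopython 1.88. DESeq2 1.42.0 gave alternative size factors.

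Named with values are the catalytic genes, the highest and lowest gene of each role, the 5 furthest toward each heart, genes under 1 TPM, those that differ 1.5-fold between quantifications, those whose main transcript is not protein-coding or holds under 50%, and, in the context lists, the extremes and genomic neighbours. Psmd1, Psmd4, Psmb2, Psmg2, Psma4, Psma7, Irf1, Irf8 and B2m were added after their values were seen. Protein sequences were not used here. Results for some genes of the context lists are not reported here.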

Additional observations from a re-analysis of the deposited data

How the results depend on the processing

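Only 1 group was measured. No paired analysis was possible because the hearts form 1 group and nothing is compared across replicate numbers. The share of Psmb10 was 15.9% from expected counts and 20.1% in the second quantification, against 21.2% from TPM. No alternative limited the shares to protein-coding transcripts. With a threshold of 25% above the lower heart in place of 1.5-fold, 1 gene was counted in place of 0. In the second quantification the span from the highest to the lowest gene was 6.78-fold for the α ring, 1.91-fold for the β genes without a cutting site, 1.70-fold for the constitutive catalytic genes, 3.40-fold for the ATPases, 3.04-fold for the other 19S genes, 1.39-fold for the 19S chaperones, 125-fold for the activators and 3.90-fold for the core chaperones. Leaving out a heart gave 1.95-fold to 1.96-fold for the β genes and 1.06-fold to 1.11-fold for the 19S chaperones. The cause of these shifts was not tested. The other 115 values moved by no more than the spread between hearts or the counting error or, for counts of genes, by no more than 1.5 times. Among them, 41 genes in place of 47 reached a threshold of 5 TPM, and the median ratio of the immunoproteasome genes changed sign, from 0.28 to -0.05, with a minimum mean count of 200, where Psmb10 alone was left. Of 30 values of single catalytic genes 29 did so, the exception being the ratio of Psmb7, 0.14 when scaled by spike-in totals, a scaling that put the median of all genes at 0.07. With near copies added to Psmb5, an alternative chosen after the data were seen, the immunoproteasome share was 11.4% and that of Psmb8 5.91%. Depth limits Psmb8, Psmb9 and Psme2b, whose counts were at most 169. It also limits Psmg3 (97 and 89 counts), Psmg4 (155 and 155), Psmc3ip (17 and 23) and Psma8 (4 and 6).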
